A study of Mus musculus with 8 samples.

Results

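Metallothioneins and zinc transporters, the genes that hold zinc inside the liver cell and move it across membranes, were followed as 7 genes of the 52636 counted. They are the metallothioneins Mt1 and Mt2, the exporters Slc30a1 and Slc30a10, and the importers Slc39a1, Slc39a4 and Slc39a14, each found by matching its Ensembl identifier to the symbol on GRCm38. All 7 passed the filter on low counts and entered the test of 15248 genes. Livers came from 8 male C57BL/6J mice that all received an adeno-associated virus of serotype 8 (AAV8) at 7 weeks of age. A MASH diet rich in fat, fructose and cholesterol, which models metabolic dysfunction-associated steatohepatitis, followed from 8 weeks of age for 24 weeks. In 4 mice the virus carried GFP (AAV8-GFP, mice 303, 311, 314 and 315) and in 4 it carried human AGXT (AAV8-AGXT, mice 308, 309, 316 and 319), both under the TBG promoter, which is active in hepatocytes. AGXT encodes an enzyme of peroxisomes that clears glyoxylate, the precursor of oxalate. Both groups thus had virus and diet, and there was no group without them. The comparison asks whether the genes of zinc handling differed once AGXT was raised in hepatocytes of MASH livers.

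As background, zinc enters the cytosol through importers of the ZIP family, whose genes are named Slc39, and leaves it through exporters of the ZnT family, whose genes are named Slc30. Metallothioneins are small proteins rich in cysteine that bind zinc and copper and buffer the free metal. The factor MTF1 senses zinc and switches on Mt1, Mt2 and Slc30a1 through metal response elements, while glucocorticoids and interleukin-6 also induce the metallothioneins and interleukin-6 induces Slc39a14 in hepatocytes. Some members of both families also carry manganese, which is a main cargo of Slc30a10 and Slc39a14 in the liver.

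Promoter sequence is shown for the 4 genes in which the letters of a metal response element were found. Through these elements Mt1, Mt2 and Slc30a1 answer zinc, and whether Slc30a10 does so was not tested. RefSeq on GRCm38.p6 gave a window of 250 bases before to 50 bases after the gene start for 5 of the 7 genes, all but Slc39a4 and Slc39a14. The search was for the cores TGCACNC and TGCGCNC on both strands. Capitals mark the matches in the 250 bases before the start, which are printed 5′ to 3′ on the plus strand, the strand of all 4 genes.
Mt1, chr8:94178839-94179088: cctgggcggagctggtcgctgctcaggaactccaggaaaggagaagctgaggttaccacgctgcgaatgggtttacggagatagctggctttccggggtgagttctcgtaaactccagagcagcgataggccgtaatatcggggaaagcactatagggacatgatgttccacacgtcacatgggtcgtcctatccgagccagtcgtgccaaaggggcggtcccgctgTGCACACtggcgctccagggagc
Mt2, chr8:94172368-94172617: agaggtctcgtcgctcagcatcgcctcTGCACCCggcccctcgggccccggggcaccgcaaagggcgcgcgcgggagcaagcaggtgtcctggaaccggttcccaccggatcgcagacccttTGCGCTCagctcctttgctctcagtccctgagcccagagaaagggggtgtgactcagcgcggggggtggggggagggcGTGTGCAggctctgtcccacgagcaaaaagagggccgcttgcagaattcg
Slc30a1, chr1:191906531-191906780: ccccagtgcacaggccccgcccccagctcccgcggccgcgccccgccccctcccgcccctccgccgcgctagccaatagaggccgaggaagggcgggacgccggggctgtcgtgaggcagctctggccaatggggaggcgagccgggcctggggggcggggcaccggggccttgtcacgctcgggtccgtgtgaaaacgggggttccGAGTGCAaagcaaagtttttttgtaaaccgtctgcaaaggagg
Slc30a10, chr1:185454598-185454847: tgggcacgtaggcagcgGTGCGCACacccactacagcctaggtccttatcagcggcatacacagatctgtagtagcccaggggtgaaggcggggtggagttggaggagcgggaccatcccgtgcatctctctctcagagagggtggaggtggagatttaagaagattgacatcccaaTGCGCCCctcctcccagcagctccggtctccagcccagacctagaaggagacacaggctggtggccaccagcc

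Over the whole 300 bases Mt2 held 4 matches, Mt1 held 3, Slc30a10 held 3, Slc30a1 held 2 and Slc39a1 held 0. Of all 32851 RefSeq windows of this length, 25.7% held at least 1 match, 7.11% at least 2, 1.97% at least 3 and 0.517% at least 4. The matches of Mt2 lay at bases -223 to -217, -128 to -122 and -50 to -44 and, after the start, at 5 to 11. In Mt1 1 match lay before the start, at -23 to -17, and the others at 3 to 9 and 21 to 27. In Slc30a10 2 of the 3 matches are the same letters read on opposite strands, at -233 to -227 and -232 to -226, so they overlap. Slc30a1 had 1 match at -43 to -37 and 1 at 31 to 37. The core of a glucocorticoid element, ACANNNTGT, was found in Mt1 at -92 to -84 (in lower case in the sequence) and in none of the other 4 windows, against 6.85% of all windows. The STAT core TTCNNNGAA was in none of the 5 windows and in 8.3% of all windows. Positions count from the start RefSeq gives for the gene, so before and after refer to that start alone. For Mt2 the bases before it end at 94172617, whereas GENCODE starts the gene at 94172664. The Mt2 match at 5 to 11 thus also lies before the GENCODE start. The RefSeq start of Mt1 may be that of an upstream transcript model, so its window may not centre on the main start. Whether these livers used the RefSeq starts was not tested. A match describes letters and does not show that a factor binds there.

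Counts on genes ran from 17095433 to 28780140 read pairs per mouse, and mice of a group correlated with r of 0.959 to 0.983 on log2 CPM across genes. CPM here are counts of a gene scaled to a common library size with TMM factors, which correct for a few abundant genes taking up reads. Mouse Agxt, the gene matching the transgene, measured 148, 180, 153 and 175 CPM in the AAV8-GFP mice and 405, 201, 243 and 371 CPM in the AAV8-AGXT mice. The groups did not overlap, and the gene was higher in AAV8-AGXT (log2 fold change 0.90, SE 0.22, edgeR adjusted p = 0.0489). This call was lost in 7 of the 8 fits that left out a mouse, all but that without mouse 309, with log2 fold changes of 0.63 to 1.03 and an adjusted p of up to 0.146 over 16 alternatives. It held in only 4 of the 16. DESeq2 size factors, upper-quartile scaling, scaling to total counts, at least 10 counts in every mouse and limma-voom also ended it. Whether reads of the human transgene were counted on the mouse gene was not tested. The 6 hepatocyte markers summed to between 45218 and 76109 CPM, and none was at 0. AAV8-AGXT mouse 319 stood apart in the metallothioneins, so the comparisons, levels and likeness in which it weighs are given with and without it.

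No gene of the 7 passed the test at an adjusted p of 0.05 in either direction. Over all 15248 genes tested, 4.35% were called, 2.45% higher and 1.9% lower in AAV8-AGXT. The 2 metallothioneins had the most variable levels of the 7 and were high in 1 AAV8-AGXT mouse, the exporters and Slc39a1 lay close together in the groups, Slc39a14 averaged 1.41 times as high in AAV8-AGXT, and Slc39a4 0.532 times. The groups did not separate fully for any of the 7, whereas they did for 16.6% of all genes tested, 8.93% higher and 7.63% lower in AAV8-AGXT. At an unadjusted p under 0.05 there was 1 of the 7, Slc39a4, and 26.2% of all genes tested.

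**Figure D1:**
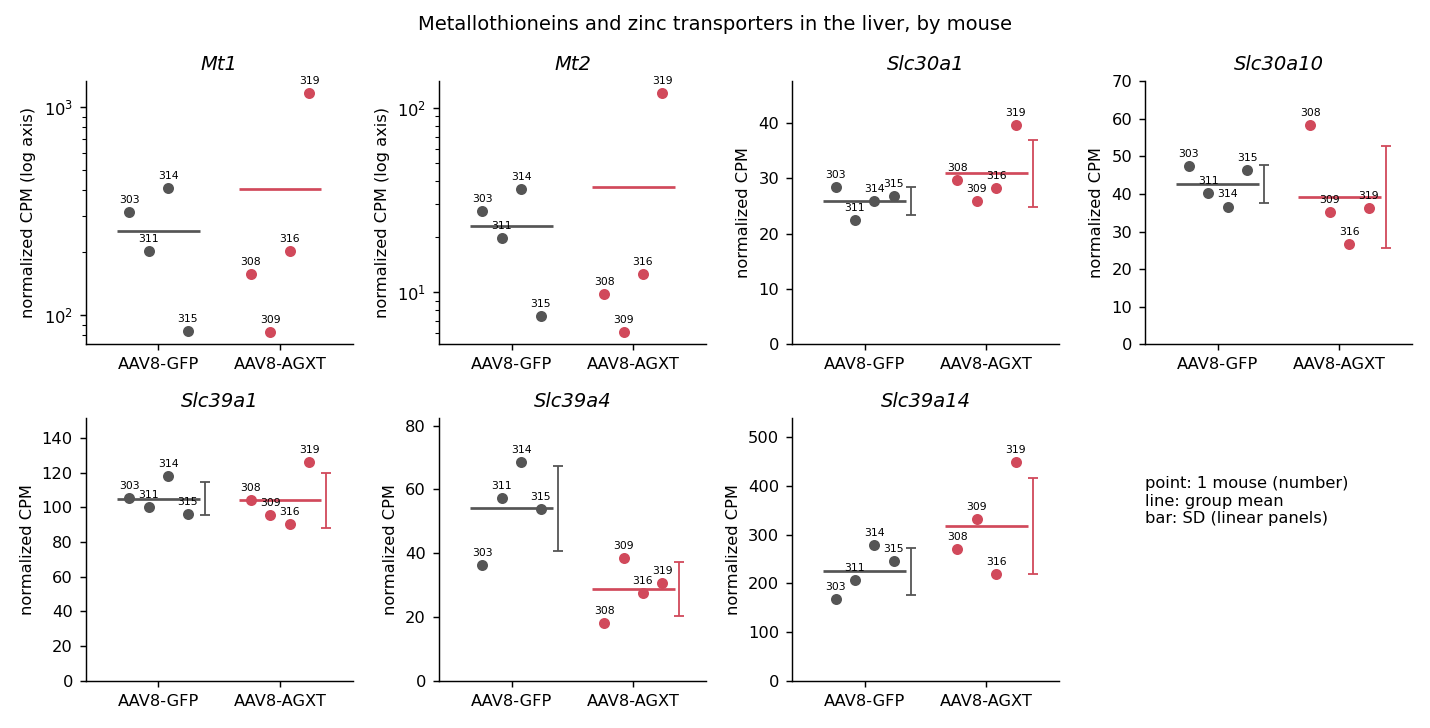
Level of each of the 7 genes in each mouse, in normalized CPM, on a log axis for Mt1 and Mt2 and on an axis from 0 for the others. Points are mice with their numbers, horizontal lines are group means and bars at the side are SD (n = 4). Mouse 319 lies far above every other mouse for Mt1 (1170 CPM) and Mt2 (120.7 CPM), and for Slc39a4 3 of the 4 AAV8-AGXT mice lie below all AAV8-GFP mice.

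Mt1 (ENSMUSG00000031765, chromosome 8, 94179082 to 94180327, plus strand), the more abundant of the liver's metallothioneins here, measured 314, 204, 408 and 83.6 CPM in AAV8-GFP mice 303, 311, 314 and 315. In AAV8-AGXT mice 308, 309, 316 and 319 it measured 157, 82.6, 203 and 1170 CPM. The groups overlapped, with 3 of the AAV8-AGXT mice inside or just below the AAV8-GFP range and 1 far above it. Means were 252 ± 140 CPM and 403 ± 514 CPM (SD, n = 4 each), and the log2 fold change was 0.68 with a 95% interval from -1.04 to 2.39 (SE 0.77, edgeR adjusted p = 0.613). Without mouse 319 the AAV8-AGXT mean was 148 ± 60.8 CPM (SD, n = 3) and the log2 fold change turned to -0.77 (edgeR adjusted p = 0.389). The sign of the Mt1 difference was thus set by 1 mouse, and neither sign passed the test.

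Mt2 (ENSMUSG00000031762, chromosome 8, 94172664 to 94173568, plus strand), which lies beside Mt1 and binds zinc in the same way, measured 27.5, 19.8, 36.3 and 7.41 CPM in the AAV8-GFP mice. It measured 9.80, 6.07, 12.5 and 120.7 CPM in the AAV8-AGXT mice. The order of the 8 mice was that of Mt1, with mouse 319 highest, mouse 314 next and mouse 309 lowest for both genes. The log2 fold change of Mt2 was 0.72, with a 95% interval from -1.23 to 2.67 (SE 0.87, edgeR adjusted p = 0.639). Without mouse 319 it was -1.26 (edgeR adjusted p = 0.179), from an AAV8-AGXT mean of 9.47 ± 3.24 CPM (SD, n = 3) against 22.8 ± 12.3 CPM (SD, n = 4). With limma-voom on all 8 mice the log2 fold change was -0.07 (adjusted p = 0.971). Of the 588 exon bases of Mt2, 432 are also exon of the antisense gene Gm45774, and the strand setting of the counting was not stated, so the level of Mt2 is uncertain.

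Mouse 319 had 2.87 times the Mt1 level of the next highest mouse and 5.64 times the mean of the other 7. For Mt2 these ratios were 3.32 and 7.07. Together the 2 genes made up 0.114% of that mouse's counts on genes, against 0.0372%, 0.0254%, 0.0487% and 0.00929% in the AAV8-GFP mice and 0.0138%, 0.00863% and 0.0216% in the other AAV8-AGXT mice. The highest mouse had 14.2 times the lowest for Mt1 and 19.9 times for Mt2. The SD of log2 CPM within groups was 1.36 for Mt1 and 1.52 for Mt2, larger than that of 99.3% and 99.5% of 13746 genes with a mean of at least 1 CPM. The other 5 genes had SD between 0.17 for Slc39a1 and 0.42 for Slc39a4. The ratios and SD of Mt1 and Mt2 include mouse 319, and the SD without it was not computed. Among the other 7 mice Mt1 ran from 82.6 to 408 CPM and Mt2 from 6.07 to 36.3 CPM. The ratio of Mt1 to Mt2 in CPM ran from 9.69 in mouse 319 to 16.2 in mouse 316, a much narrower range than that of either level. The ratio was 11.4, 10.3, 11.2 and 11.3 in AAV8-GFP mice 303, 311, 314 and 315. In AAV8-AGXT mice 308 and 309 it was higher, at 16.0 and 13.6. This difference was not tested, and the ratio is as uncertain as the level of Mt2.

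**Figure D2:**
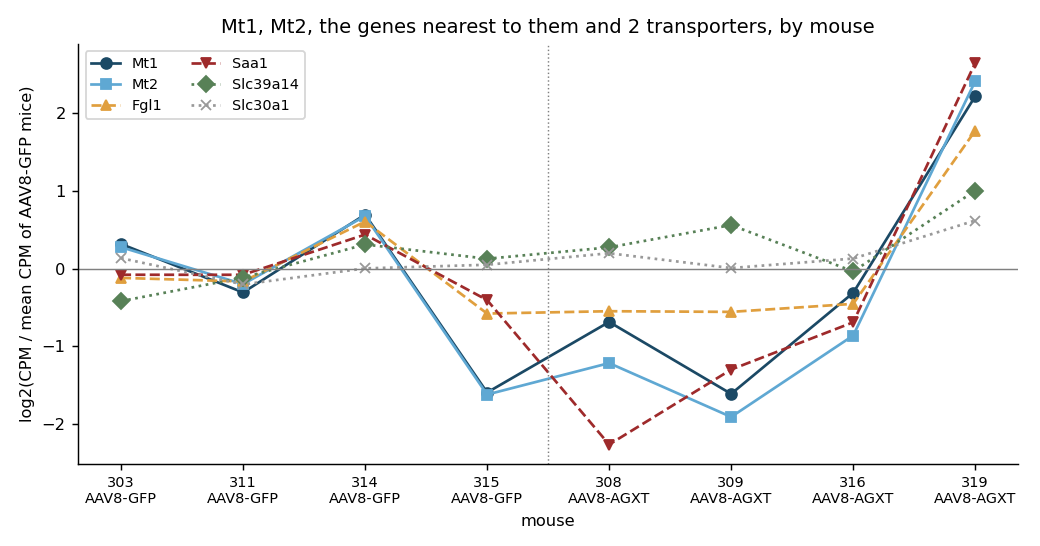
Level of each gene in each mouse as log2 of its CPM over the mean CPM of the AAV8-GFP mice, for Mt1, Mt2, 2 of the genes nearest to them in pattern (Fgl1 and Saa1) and the transporters Slc39a14 and Slc30a1. The 4 AAV8-GFP mice are left of the dotted line and the 4 AAV8-AGXT mice right of it, and each line is 1 gene. Mt1, Mt2, Fgl1 and Saa1 are all highest in mouse 319 and next highest in mouse 314, and the 2 transporters vary less.

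Of 13745 other genes, the one nearest to Mt1 in pattern over the 8 mice was Mt2, and the one nearest to Mt2 was Mt1. Likeness was the mean absolute difference of log2 CPM after centring each gene on its mean, and it was 0.23 for this pair. Next for Mt1 came Fgl1, a secreted protein of hepatocytes related to fibrinogen (0.44), and Mmd2 (0.52). Next for Mt2 came Saa1, a serum amyloid of the acute phase (0.47), and Prtn3, a protease of neutrophil granules (0.49). Fgl1 measured 424, 410, 700 and 308 CPM in the AAV8-GFP mice and 315, 313, 336 and 1571 CPM in the AAV8-AGXT mice. Saa1 measured 489, 489, 699 and 390 CPM in the AAV8-GFP mice and 108, 210, 320 and 3221 CPM in the AAV8-AGXT mice. Both were thus highest in mouse 319, as the metallothioneins were. The 5 transporters ranked from 452, for Slc39a1, to 10780, for Slc30a10, in likeness to Mt1 and from 1178 to 6281 in likeness to Mt2. These ranks describe 8 libraries. Over the 7 mice without mouse 319, Mt1 and Mt2 were again nearest to each other (0.22), but Fgl1 ranked 105 of 13770 genes in likeness to Mt1, and Saa1 ranked 319 and Prtn3 30 in likeness to Mt2. The transporters then ranked from 2836 to 11859 for Mt1 and from 2878 to 11236 for Mt2.

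Most of the listed acute phase genes that interleukin-6 induces were also highest in mouse 319. The 16 genes listed summed to 39876 CPM in mouse 319, to 14048 to 18068 CPM in the other AAV8-AGXT mice and to 16278 to 26076 CPM in the AAV8-GFP mice. Hp, Fga, Fgb and Fgg gave 10254, 5658, 6685 and 4286 CPM of the sum in mouse 319, so it says little of the less abundant genes. Mouse 319 was the highest of the 8 for 12 of the 16, and for 12.4% of 13746 genes. It exceeded the next mouse more than 2-fold for Saa1, Saa2 and Itih4, all secreted by hepatocytes, and for 0.269% of the 13746 genes. For Saa3, Socs3, Cebpd and Steap4 mouse 319 was not the highest, at 28.4, 42.5, 39.3 and 263 CPM. The highest mouse for each measured 42.4, 53.0, 54.3 and 416 CPM. Between the groups 0 of the 16 were called, with a median log2 fold change of 0.11, or -0.44 without mouse 319. For the 10 genes that glucocorticoids induce, the sum in mouse 319 was 7916 CPM. The other AAV8-AGXT mice ran from 6442 to 9001 CPM and the AAV8-GFP mice from 4158 to 7392 CPM. Pck1 alone gave 3985 CPM of the sum in mouse 319, so the sum says little of the less abundant genes. Mouse 319 was highest for 3 of the 10, Fkbp5, Tat and Per1, beside the 12.4% of the 13746 genes. The parts of the acute phase and of glucocorticoids in the metallothionein levels were not tested.

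Export differed little. Slc30a1 (ENSMUSG00000037434, chromosome 1, 191906767 to 191913247, plus strand), the zinc exporter of the plasma membrane, measured 28.3, 22.4, 25.9 and 26.7 CPM in the AAV8-GFP mice and 29.6, 25.96, 28.2 and 39.6 CPM in the AAV8-AGXT mice. The groups overlapped, and mouse 319 was again the highest, though by only 1.34 times the next. Means were 25.8 ± 2.49 and 30.9 ± 6.04 CPM (SD, n = 4 each), with a log2 fold change of 0.26 and a 95% interval from -0.06 to 0.58 (SE 0.14, edgeR adjusted p = 0.284). Without mouse 319 the log2 fold change was 0.12 (edgeR adjusted p = 0.60), and with scaling to total counts it was 0.02 (adjusted p = 0.949). Of its 5244 exon bases 468 are shared with 1700034H15Rik on the other strand.

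Slc30a10 (ENSMUSG00000026614, chromosome 1, 185454848 to 185468762, plus strand), which exports manganese from hepatocytes into bile, measured 47.4, 40.2, 36.7 and 46.4 CPM in the AAV8-GFP mice. In the AAV8-AGXT mice it measured 58.4, 35.1, 26.8 and 36.3 CPM, so that the highest and the lowest of the 8 were both AAV8-AGXT mice, 308 and 316. The log2 fold change was -0.13, with a 95% interval from -0.60 to 0.34 (SE 0.21, edgeR adjusted p = 0.743). Without mouse 316 it was 0.02. A further 533 of its 5836 exon bases are shared with Gm2061 on the other strand.

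Import was where the larger transporter differences lay. Slc39a1 (ENSMUSG00000052310, chromosome 3, 90248172 to 90253612, plus strand), a zinc importer found in most tissues, measured 105, 100.4, 118 and 96.3 CPM in the AAV8-GFP mice and 104, 95.7, 90.4 and 126 CPM in the AAV8-AGXT mice. The means were 105 ± 9.38 and 104 ± 15.8 CPM (SD, n = 4 each), and the log2 fold change was -0.01 with a 95% interval from -0.29 to 0.27 (SE 0.13, edgeR adjusted p = 0.967). It had the smallest SD within groups of the 7 genes.

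Slc39a4 (ENSMUSG00000063354, chromosome 15, 76612383 to 76617384, minus strand), the importer best known for taking up dietary zinc in the intestine, measured 36.3, 57.4, 68.7 and 53.8 CPM in the AAV8-GFP mice. It measured 18.3, 38.6, 27.5 and 30.6 CPM in the AAV8-AGXT mice. The groups overlapped only in that AAV8-GFP mouse 303 lay below AAV8-AGXT mouse 309. Means were 54.0 ± 13.4 and 28.8 ± 8.41 CPM (SD, n = 4 each), a ratio of 0.532, and the log2 fold change was -0.91 with a 95% interval from -1.44 to -0.38 (SE 0.24). The unadjusted p of 0.00338 ranked 844 of the 15248 genes, and the edgeR adjusted p was 0.0610, which missed the threshold. The gene thus had the largest difference of the 5 transporters without being called.

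The call of Slc39a4 turned on the processing, although its sign did not. Over 16 alternatives the log2 fold change ran from -1.13 to -0.76, and the gene was called in 4. These were the DESeq2 Wald test (-0.92, adjusted p = 0.00748), no filter on low counts (-0.92, edgeR adjusted p = 0.0297), scaling to total counts (-1.13, edgeR adjusted p = 0.0423) and the fit without mouse 309 (-1.09, edgeR adjusted p = 0.0469). The adjusted p was highest without mouse 311, at 0.176 (edgeR), and it was 0.122 without mouse 319. Scaling to total counts also moved the median of all genes to -0.22, from 0.02.

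**Figure D3:**
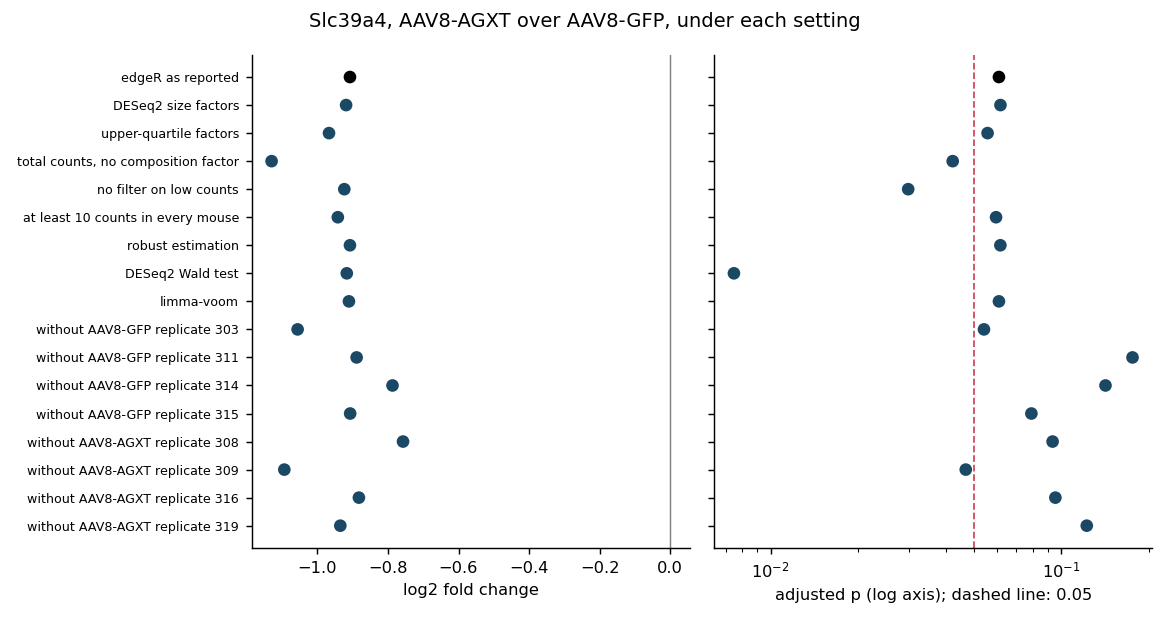
Log2 fold change of Slc39a4, AAV8-AGXT over AAV8-GFP (left), and its adjusted p on a log axis (right) in the edgeR fit as reported (black) and under each of 16 alternatives (blue). The dashed line is the threshold of 0.05. All points on the left lie below 0, from -1.13 to -0.76, and on the right 4 alternatives lie under the line.

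Cholangiocyte markers and most markers of stellate cells averaged lower in AAV8-AGXT, as Slc39a4 did, whereas the 5 endothelial markers averaged higher (log2 fold changes of 0.12 to 0.60). Being lower was not particular to these 2 cell types. The median log2 fold change was also below 0 for macrophage markers (-0.51) and for lymphocyte and neutrophil markers (-0.74). In bulk RNA, fewer cells of a type and less RNA per cell cannot be told apart. The 6 cholangiocyte markers, genes of bile duct cells, summed to 225 to 676 CPM in the AAV8-GFP mice and to 74.3 to 274 CPM in the AAV8-AGXT mice. All 6 were detected, none was called, and their median log2 fold change was -1.24. The 8 markers of stellate cells and myofibroblasts, the cells that lay down collagen, summed to 364 to 710 and 79.6 to 332 CPM, with a median log2 fold change of -1.17. Acta2, a smooth muscle actin, fell by 0.99 and Timp1, an inhibitor of matrix proteases, fell by 2.29 on the log2 scale (SE 0.22 and 0.52, edgeR adjusted p = 0.0427 and 0.0444). The call of Acta2 was lost with each of the 8 mice left out and that of Timp1 with 6 of the 8, all but mice 315 and 316, and over all alternatives the adjusted p reached 0.116 and 0.148.

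Mouse by mouse, Slc39a4 and the cholangiocyte sum were both lowest in mouse 308, at 18.3 and 74.3 CPM. Mouse 308 also had the lowest share of tallied pairs on genes, 56.3% against 62.4% to 69.1% in the others. Within AAV8-GFP the order differed, since mouse 303 had the lowest Slc39a4 (36.3 CPM) with a cholangiocyte sum of 562 CPM, and mouse 315 the lowest sum (225 CPM) with 53.8 CPM of Slc39a4. Spp1 alone gave 60.3, 513 and 201 CPM of the sums in mice 308, 303 and 315, so these sums say little of the other cholangiocyte markers. The part of these cells in the Slc39a4 difference was not tested. Of the enterocyte markers, Sis and Cdx2 were at 0 in every mouse and Lct and Cdx1 at no more than 0.138 CPM. Vil1 stayed between 0.189 and 2.33 CPM, and Fabp2, which liver also expresses, between 218 and 409 CPM. Of 9 markers of the exocrine pancreas 3 were at 0 in every mouse and 1, Cela1, passed the filter, at 9.07 to 15.7 CPM.

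Slc39a14 (ENSMUSG00000022094, chromosome 14, 70303469 to 70351425, minus strand), which brings manganese, iron and zinc into hepatocytes, measured 168, 207, 279 and 245 CPM in the AAV8-GFP mice. It measured 272, 331, 219 and 450 CPM in the AAV8-AGXT mice, where 319 and 309 lay above every AAV8-GFP mouse and 308 and 316 within their range. Means were 225 ± 47.7 and 318 ± 99.2 CPM (SD, n = 4 each), and the log2 fold change was 0.50 with a 95% interval from -0.02 to 1.02 (SE 0.23, edgeR adjusted p = 0.205). Without mouse 319 it was 0.29 (edgeR adjusted p = 0.437), and over all 16 alternatives it ran from 0.26 to 0.65 with no call.

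**Figure D4:**
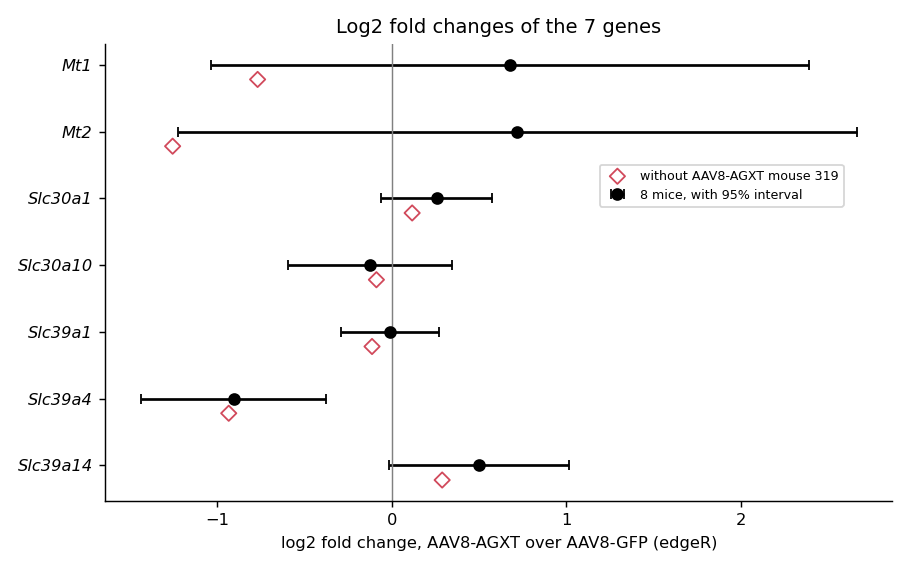
Log2 fold change of each of the 7 genes, AAV8-AGXT over AAV8-GFP, from edgeR. Black points with bars are the fit on 8 mice with its 95% interval, and open diamonds the fit without AAV8-AGXT mouse 319. Mt1 and Mt2 move from 0.68 and 0.72 to -0.77 and -1.26 without that mouse, while Slc39a4 stays near -0.91, and 6 of the 7 intervals include 0.

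Per kilobase of exon, which allows genes of different length to be compared, Mt1 led in the AAV8-GFP mice with a mean of 202 CPM per kb. Slc39a1 (44.4), Mt2 (38.7), Slc39a14 (21.3), Slc39a4 (17.4), Slc30a10 (7.31) and Slc30a1 (4.93 CPM per kb) followed. Among neighbours in this order, the ranges over mice of Slc39a1 and Mt2, of Mt2 and Slc39a14 and of Slc39a14 and Slc39a4 overlapped, and the others did not. In the AAV8-AGXT mice Mt1 (323 CPM per kb) and Mt2 (63.4) came first and Slc39a1 (44.1) came after them, each overlapping the next, and Slc39a14 (30.1) lay clear of Slc39a4 (9.26). Slc39a4, Slc30a10 (6.71) and Slc30a1 (5.89 CPM per kb) then overlapped in turn. The place of Mt2 rested on mouse 319. Without that mouse Mt1 stood at 118 CPM per kb and still led, and Mt2, at 16.1 CPM per kb, came after Slc39a1 (41.0) and Slc39a14 (25.97), overlapping Slc39a14 and Slc39a4. Exon length was the union over annotated transcripts, so the level per length of Mt1, whose union holds retained introns, is uncertain. The place of Mt2 is uncertain with or without mouse 319, since 432 of its 588 exon bases are shared with an antisense gene.

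The rest of both transporter families showed no called gene. Of the 11 other ZIP genes 10 were tested, with a median log2 fold change of 0.04 and a range from -0.52 to 0.29, beside a median of 0.02 over all genes tested. Of the 8 other ZnT genes 5 were tested, with a median of 0.08. Slc30a9 (61.9 ± 3.63 and 67.5 ± 3.93 CPM), Slc39a9 (53.8 ± 5.03 and 61.7 ± 5.48 CPM) and Slc30a5 (36.5 ± 10.02 and 42.8 ± 10.2 CPM; SD, n = 4 each) were the most abundant of them. Slc39a8, an importer of zinc and manganese, was the one whose groups did not overlap. It measured 14.5, 14.3, 16.28 and 15.3 CPM in the AAV8-GFP mice and 18.8, 20.97, 17.8 and 16.33 CPM in the AAV8-AGXT mice, with a log2 fold change of 0.29 (SE 0.11, edgeR adjusted p = 0.142). The groups only just separated, since AAV8-GFP mouse 314 (16.28 CPM) and AAV8-AGXT mouse 319 (16.33 CPM) were nearly equal. Groups did not overlap in the higher direction for 8.93% of all genes tested. Mtf1, the zinc sensor, had a log2 fold change of 0.22 (SE 0.11, edgeR adjusted p = 0.241) between means of 15.7 ± 1.32 and 18.2 ± 1.31 CPM (SD, n = 4 each). Mt3 and Mt4, metallothioneins of brain and of stratified epithelia, did not exceed 0.0882 CPM in any mouse.

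**Figure D5:**
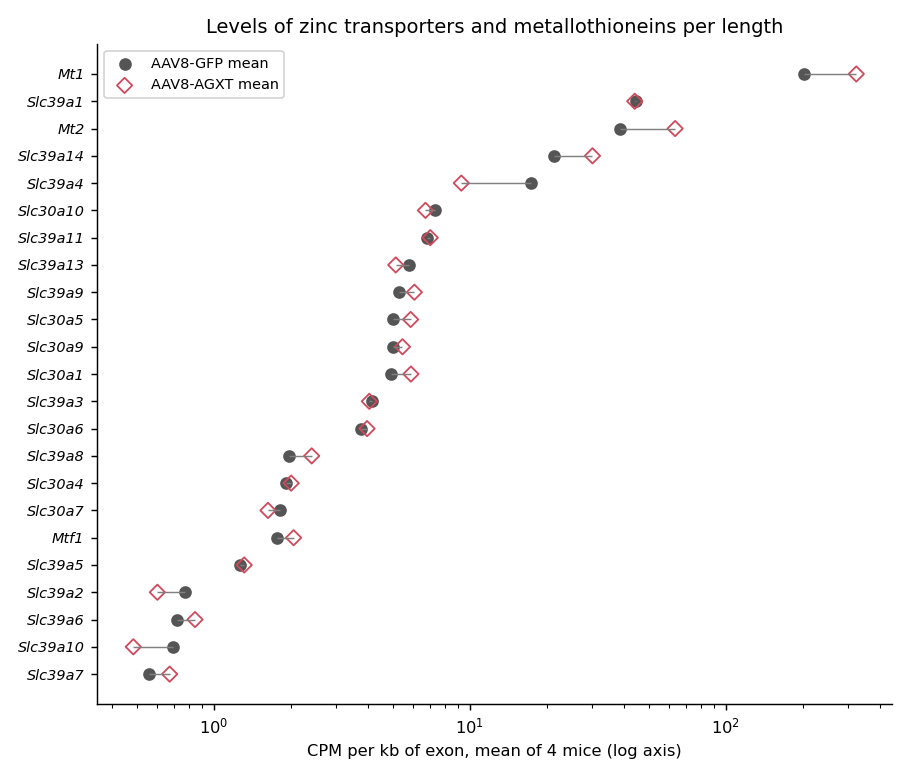
Mean level in CPM per kb of exon (log axis, n = 4 mice per group) of the tested metallothioneins, Slc30 and Slc39 genes and Mtf1, for AAV8-GFP (filled circles) and AAV8-AGXT (open diamonds), joined by a line for each gene. Mt1 stands highest at 202 and 323 CPM per kb (118 in AAV8-AGXT without mouse 319), and among the more abundant transporters the gap between groups is widest for Slc39a4, at 17.4 and 9.26 CPM per kb.

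Genes that use or carry related metals are read against the 4.35% of all genes called, of which the higher ones made up 2.45% of all genes. Of 11 tested genes of copper handling 0 were called, with a median log2 fold change of 0.08, although metallothioneins also bind copper. Of 9 genes of manganese handling and manganese enzymes 1 was called, Arg1, the arginase of the urea cycle. It rose by 0.62 on the log2 scale (SE 0.15, edgeR adjusted p = 0.0490), from a mean of 570 ± 87.4 CPM to one of 876 ± 102 CPM (SD, n = 4 each). Of 14 zinc enzymes of liver 1 was called, Car5a, the mitochondrial carbonic anhydrase of hepatocytes, which rose by 1.05 on the log2 scale (SE 0.17, edgeR adjusted p = 0.0276), from a mean of 11.2 ± 2.18 CPM to one of 23.2 ± 3.95 CPM (SD, n = 4 each). The medians of both lists, 0.13 and 0.31, stood beside 0.02 for all genes tested.

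Of the 10 genes that glucocorticoids induce, 2 were called higher, as were 2.45% of all genes, and the median log2 fold change of the 10 was 0.22 against 0.02 over all genes. The 10 did not move as one, with log2 fold changes from -0.41 to 1.37. Tsc22d3 (-0.41), Sgk1 (-0.17) and Igfbp1 (-0.02) lay below 0, without a call. Fkbp5, a co-chaperone of the glucocorticoid receptor, rose by 1.37 on the log2 scale (SE 0.23, edgeR adjusted p = 0.0283), with means of 26.7 ± 6.35 and 68.9 ± 21.3 CPM (SD, n = 4 each). Errfi1, an inhibitor of the EGF receptor, rose by 0.61 (SE 0.13, edgeR adjusted p = 0.0375), with means of 1092 ± 86.2 and 1670 ± 131 CPM (SD, n = 4 each). The calls of all 4 genes were lost without mouse 311, without mouse 314 and without mouse 319. Those of Arg1 and Errfi1 were also lost without mouse 303 and without mouse 308, that of Arg1 without mouse 316 and that of Errfi1 without mouse 309, so that each was lost in 6 of 8 such fits. Scaling to total counts ended the calls of Arg1 and Errfi1, and upper-quartile scaling and at least 10 counts in every mouse that of Arg1. The edgeR adjusted p of the 4 reached 0.170, 0.115, 0.124 and 0.135 for Arg1, Car5a, Fkbp5 and Errfi1. In the fits without mouse 319, 311 or 314 the calls over all genes fell to 12 higher and 2 lower, to 2 and 0 and to 11 and 4, from 374 and 290.

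Among the remaining marker lists 0 genes were called. The median log2 fold change was 0.35 for 6 hepatocyte markers, 0.22 for 5 endothelial markers, -0.51 for 8 macrophage markers and -0.74 for the 6 tested markers of lymphocytes and neutrophils.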

How the data were processed

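The authors made 1 stranded mRNA library from the liver of each of 8 mice, read it paired-end and, per the labels, processed the reads with FastQC 0.11.8, Trimmomatic 0.35, HISAT2 2.1.0.13 on GRCm38 and HTSeq. The deposited values are raw counts of read pairs per Ensembl gene, without normalization, and the strand option of the counting was not given in the sources used here. HTSeq's tallies of pairs not assigned to a gene, 30.9% to 43.7% of all tallied pairs, stayed out of library sizes and tests. Most of these were pairs without a unique alignment (17.4% to 23.4% of all tallied pairs). Pairs outside annotated genes were 4.55% to 6.47% and pairs ambiguous between genes 5.02% to 6.36%. The rest were not aligned or of low alignment quality. Replicates are separate mice, grouped by the treatment in the labels. Symbols and positions came from GENCODE M21, which matched 52403 of 52636 identifiers.

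Counts were fitted in R 4.3.3 with edgeR 4.0.16 (filterByExpr, TMM, quasi-likelihood test, treatment as the only term) and adjusted by Benjamini-Hochberg over 15248 genes, with a call at an adjusted p under 0.05. Log2 CPM used a prior count of 2. Alternatives were the Wald test of DESeq2 (version 1.42.0 here), a tool the study also used, limma-voom (limma 3.58.1), other scalings and filters, robust estimation and each mouse left out. The procedure was checked on simulated data. Precision is set by the spread between mice, with a common coefficient of variation of 23.3%. The genes and lists were chosen with earlier results of these data known. Named were the 7 genes, called genes of the other lists, the 3 most abundant uncalled zinc genes and the 3 genes nearest in pattern to Mt1 and to Mt2. Slc39a8, Mtf1, Tat, Per1, Pck1, Tsc22d3, Sgk1, Igfbp1 and single markers were named after values were seen. So were the acute phase genes Saa2, Saa3, Itih4, Socs3, Cebpd, Steap4, Hp, Fga, Fgb and Fgg. Levels and likeness without mouse 319 and the alternatives for genes outside the 7 were also added then.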

Additional observations from a re-analysis of the deposited data

Results flagged for a closer look

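In the AAV8-AGXT group the Mt1 level of mouse 319, 1170 CPM, lay far from the other 3 mice, which measured 82.6 to 203 CPM. Its gap to the nearest mouse made up 0.889 of the group's range, above Dixon's 95% critical value for 4 samples. Mt2 in the same mouse, at 120.7 CPM against 6.07 to 12.5 CPM, had a ratio of 0.944. These were the 2 of 14 combinations of gene and group that passed the limit, and both come from 1 library and from 2 genes that move together. Both ratios were taken on CPM, not on log2 CPM, so the flag holds for the CPM scale alone. Chance passes the limit in about 1 of 20 only where values are normally distributed, which was not tested for these CPM. The acute phase sum of that mouse, 39876 CPM, was also the highest of the 8, though most of it came from Hp, Fga, Fgb and Fgg. The part of the acute phase in these levels was not tested.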

How the results depend on the processing

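Over all genes, 374 were called higher and 290 lower. Scaling to total counts gave 144 and 857, and the DESeq2 Wald test gave 1068 and 1033. With each mouse left out the counts ran from 2 to 379 higher and from 0 to 325 lower, the lowest without mouse 311. Of the 7 genes 0 were called lower, but 1, Slc39a4, was called under total counts, under no filter, with DESeq2 and without mouse 309, so that leaving out each mouse gave 0 to 1. With each mouse left out the log2 fold change ran from -0.77 to 1.00 for Mt1 and from -1.26 to 1.06 for Mt2, both turned below 0 without mouse 319, and limma-voom gave -0.069 for Mt2. It ran from -0.40 to 0.023 for Slc30a10, turned without mouse 316, and from -0.11 to 0.056 for Slc39a1, turned without mice 314, 309 and 316 (0.03, 0.01 and 0.056). The causes were not tested. Slc30a1, Slc39a4 and Slc39a14 kept their sign under all 16 alternatives. No paired analysis was possible because the animal numbers are not shared between the groups. With 4 mice per group and the spread of Mt1 and Mt2, the 95% intervals span more than 3 log2 units, which limits what can be said of them. Counting error is small for the 7 genes, whose lowest count in a mouse was 101.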
